A study of Danio rerio with 12 samples.

Results

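The genes described here act inside the growing oocyte: the transcription factors figla and lhx8a, the RNA-binding and mRNA-handling factors zar1, zar1l, cpeb1b, ybx1 and btg4, and the egg chromatin proteins h1m, npm2a and npm2b. They were taken by symbol from a table of estimated counts of zebrafish ovary. All 10 genes had a line among the 26171 named genes of that table, and all 10 passed the filter on low counts.

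A fish oocyte makes nearly all the RNA and protein that the early embryo will use, and it does so while it is still growing in the ovary. Transcription factors such as figla switch on the oocyte's own genes, RNA-binding proteins store the resulting mRNAs in a silent state by controlling their poly(A) tails and their translation, and special histones and histone chaperones prepare chromatin for fertilisation. In the zebrafish, loss of figla or zar1 is known to leave only male fish.

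The study asked what adamts9 does in the formation and upkeep of the ovary. Its product is a protease that is secreted and cuts proteoglycans of the matrix around cells. Polyadenylated RNA of whole ovary was sequenced in 4 groups of 3 libraries each: adamts9 mutants at 61 days post fertilisation (dpf), wild-type fish at 61 dpf, mutants at 47 dpf and wild-type fish at 47 dpf. Wild-type fish were of the AB strain. No label gives the allele, the kind of mutation or the background of the mutant line, and none says whether the libraries of a group came from separate animals. The p-values therefore reflect the spread among these libraries only, which may be technical. All fish were fed and housed alike, and the design text of the series gives other ages than the labels, which are used here.

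Total counts were 17612871 to 26031556 in mutants and 21702522 to 38754919 in wild type at 61 dpf. Those of 47 dpf were 16456718 to 29277732 in mutants and 23723588 to 27678709 in wild type. The adamts9 transcript, at 9.98 to 18.9 CPM (counts scaled by TMM to a common library size) over all libraries, gave log2 fold changes of 0.06 at 61 dpf and -0.22 at 47 dpf between mutants and wild type, with edgeR adjusted p of 0.886 and 0.969, and so does not check the genotype labels. Of 27 oocyte marker genes in the table, many of them egg coat genes, all 27 were above 3 counts in every library. Their summed level was 23312 to 26844 CPM in mutants at 61 dpf, and 27928, 11646 and 14190 CPM in replicates 1, 2 and 3 of wild type at 61 dpf. In libraries of 47 dpf it was 28522 to 37730 CPM in mutants and 28583 to 33541 CPM in wild type. The sum was thus lowest in wild-type replicates 2 and 3 at 61 dpf, but the markers did not all move with it. At 61 dpf 19 of the 27 had a positive log2 fold change of mutants over wild type, with a median of 0.53. bmp15, an oocyte growth factor, was at 197, 183 and 162 CPM in mutants at 61 dpf, against 236, 284 and 538 CPM in wild type, where replicate 3 was the highest of all 12 libraries. buc, which organises the Balbiani body, was at 1112, 796 and 1321 CPM in wild type at 61 dpf. Its replicate 2 was the lowest and its replicate 3 the highest of all 12 libraries. For dazl, another of the markers, the wild-type libraries at 61 dpf were at 472, 762 and 252 CPM. There replicate 2 was the highest and replicate 3 the lowest of all 12. ddx4, also a marker, was at 637, 622 and 742 CPM in wild type at 61 dpf. Every mutant library of that age was higher, at 1633, 861 and 956 CPM. gdf9 overlapped at 61 dpf, at 62.6 to 79.5 CPM in wild type and 57.6 to 69.3 CPM in mutants.

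None of the 10 regulators passed the threshold of adjusted p under 0.05 (edgeR quasi-likelihood test, adjusted over 21407 genes) between mutants and wild type at 61 dpf, where 1.82% of all genes tested were called. figla and zar1 came nearest and were higher in mutants, while h1m was lower in mutants. Without adjustment, 3 of the 10 genes had p under 0.05, or 30%, against 25.3% of all genes, so the share was near the background. DESeq2 called 2 of the 10, figla and zar1, where it called 11.2% of all genes. Levels did not overlap between mutants and wild type for 4 of the 10 genes, figla, zar1 and ybx1 being higher and h1m lower in mutants, against 27.9% of all genes that did not overlap in either direction (15.6% higher and 12.3% lower). The median log2 fold change was 0.15 over the 10 genes and 0.0055 over all genes.

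At 47 dpf no regulator was called either (0.0888% of all genes were), none had p under 0.05 without adjustment against 6.92% of all genes, and DESeq2 called none (0.808% of all genes). Levels did not overlap between mutants and wild type for 1 gene, ybx1, against 12.6% of all genes. It was higher in mutants, as were 8.01% of all genes, and no regulator was lower without overlap, against 4.6% of all genes. The 10 log2 fold changes at 47 dpf lay between -0.25 and 0.46, and their 95% intervals all included 0.

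**Figure D1:**
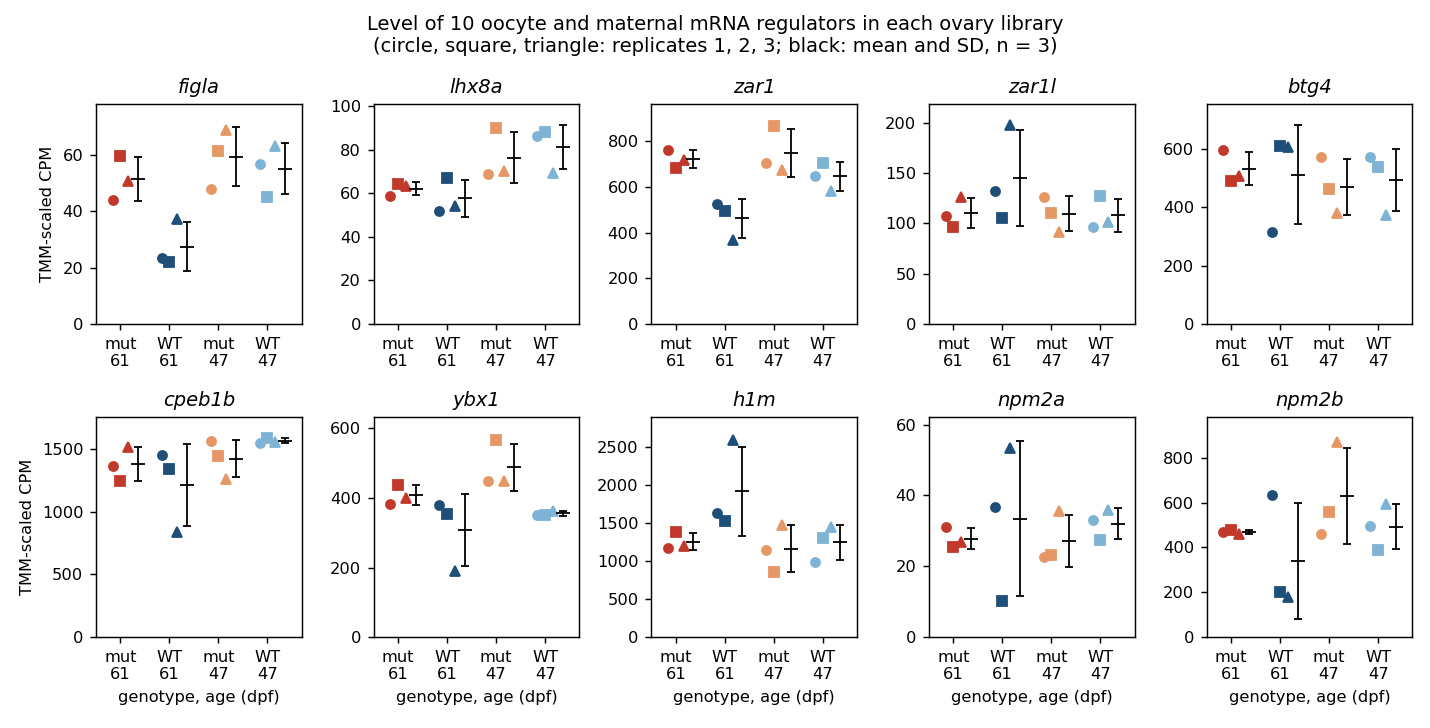
Level of each of the 10 regulators in each ovary library, in TMM-scaled CPM (linear axis from 0, with its own scale for each gene). Points are replicates 1, 2 and 3 of mutants and wild type at 61 and then 47 dpf, and black bars are the mean and SD of 3 libraries. The wild-type libraries at 61 dpf lie below all others for figla and zar1 and above all others for h1m, and npm2a and npm2b spread most widely there.

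figla encodes a basic helix-loop-helix factor that activates genes of the egg coat in the mouse. It stood at 43.9, 59.6 and 50.6 CPM in mutants at 61 dpf, against 23.2, 21.8 and 37.2 CPM in wild type of that age. The younger mutants held 48.0, 61.2 and 68.6 CPM and the younger wild-type fish 56.7, 45.1 and 63.0 CPM. All 3 wild-type libraries at 61 dpf were below each of the other 9 libraries. The log2 fold change of mutants over wild type was 0.91 ± 0.24 (SE) at 61 dpf, with a 95% interval of 0.39 to 1.42 and an edgeR adjusted p of 0.065. It was 0.11 ± 0.24 at 47 dpf (adjusted p = 0.998). The effects at 61 and 47 dpf differed by 0.80 ± 0.33, with an edgeR adjusted p of 0.55 (0.0342 before adjustment), so a difference between ages did not pass the test.

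The same gene gave the lowest adjusted p of the 10 for age in wild type. At 61 dpf figla averaged 27.4 ± 8.53 CPM in wild type, against 54.9 ± 9.08 CPM at 47 dpf (SD, n = 3 each). On the log2 scale the later age was at -1.003 ± 0.24 relative to the earlier (edgeR adjusted p = 0.0573). In mutants it averaged 51.3 ± 7.88 CPM at 61 dpf and 59.3 ± 10.5 CPM at 47 dpf, and the log2 fold change was -0.21 with a 95% interval of -0.72 to 0.31. Both contrasts that come near the threshold use the wild-type libraries at 61 dpf, and they therefore do not count as separate evidence. The call on figla turned on the method: DESeq2 gave an adjusted p of 0.0148 for mutants against wild type at 61 dpf and 0.00514 for age in wild type, and upper-quartile scaling in edgeR gave 0.0269 and 0.0367. That scaling called 4.62% and 1.46% of all genes in these contrasts. Fits of only the compared libraries in edgeR, with fewer degrees of freedom, gave adjusted p of 0.144 and 0.167. Scaling each library to its oocyte markers gave a log2 fold change of 0.20 at 61 dpf (edgeR adjusted p = 0.714) and of -0.068 with age in wild type (adjusted p = 0.883). It also moved the median of all genes, to -0.67 and 0.91 in these contrasts, so the lower values for figla include a shift shared by all genes. Many of those markers are egg coat genes, the class that figla activates in the mouse. These values therefore cannot separate a change of figla from one of oocyte content.

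lhx8a, a LIM homeobox factor needed for oocyte differentiation in the mouse, was measured at 58.8, 64.2 and 63.5 CPM in mutants and 51.7, 67.2 and 54.0 CPM in wild type at 61 dpf. The groups overlapped, and the log2 fold change was 0.11 with a 95% interval of -0.26 to 0.48. Levels at 47 dpf were 69.0, 89.7 and 70.4 CPM in mutants and 86.4, 87.9 and 69.3 CPM in wild type, again overlapping, with a log2 fold change of -0.09. Age set its levels apart in both genotypes: each library at 61 dpf was below each library of the same genotype at 47 dpf. The difference of lhx8a between ages did not pass the test. Its log2 fold change was -0.50 ± 0.17 in wild type (edgeR adjusted p = 0.129) and -0.30 ± 0.17 in mutants (adjusted p = 0.9997).

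zar1 encodes a zinc-finger protein that binds maternal mRNAs and holds back their translation in oocytes. Its levels were 762, 685 and 718 CPM in mutants at 61 dpf, against 525, 497 and 367 CPM in wild type. In libraries of 47 dpf they were 707, 869 and 675 CPM in mutants and 648, 707 and 584 CPM in wild type. As for figla, the 3 wild-type libraries at 61 dpf were the lowest of all 12. The log2 fold change of mutants over wild type was 0.64 ± 0.18 at 61 dpf, with a 95% interval of 0.25 to 1.03 (edgeR adjusted p = 0.0703), and 0.21 ± 0.18 at 47 dpf (adjusted p = 0.954). With age it was -0.48 ± 0.18 in wild type (adjusted p = 0.152) and -0.05 ± 0.18 in mutants. The value at 61 dpf passed the threshold in DESeq2 (0.61, adjusted p = 0.0216) and with upper-quartile scaling in edgeR (0.83, adjusted p = 0.0424). With only the compared libraries in edgeR the adjusted p was 0.173. The value was -0.02 when libraries were scaled to their oocyte markers, which moved the median of all genes to -0.67.

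zar1l is the close relative of zar1. It was at 108, 96.8 and 127 CPM in mutants at 61 dpf, against 132, 106 and 198 CPM in wild type, so the groups overlapped. The groups of 47 dpf were near each other, at 127, 111 and 91.8 CPM in mutants and 96.6, 127 and 101 CPM in wild type. The log2 fold change at 61 dpf was -0.40 ± 0.23 (edgeR adjusted p = 0.301), of the opposite sign to that of zar1, and was -0.11 without wild-type replicate 3. It passed the threshold only when libraries were scaled to their oocyte markers, at -1.10 with an adjusted p of 0.0446, a scaling that moved the median of all genes to -0.67.

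The ratio of zar1 to zar1l counts within a library does not depend on library scaling. It was 7.09, 7.07 and 5.67 in mutants at 61 dpf, against 3.97, 4.71 and 1.85 in wild type. For 47 dpf the ratios were 5.57, 7.85 and 7.35 in mutants and 6.70, 5.57 and 5.78 in wild type. The ratio in wild type at 61 dpf was thus below that of every other library. The mean log2 ratio differed by 1.01 between mutants and wild type at 61 dpf and by -0.88 between 61 and 47 dpf in wild type, each with an exact two-sided permutation p of 0.1 (0.2 adjusted over 8 comparisons), the smallest p that 3 against 3 libraries allow. Without wild-type replicate 3 at 61 dpf the differences were 0.61 and -0.47. The ratio differed by 0.19 between mutants and wild type at 47 dpf (exact permutation p = 0.3) and by -0.06 between ages in mutants (exact permutation p = 0.6). Counts of zar1l were fractional in all 12 libraries, as the estimation shares some reads between transcripts, while those of zar1 were whole in all 12.

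**Figure D2:**
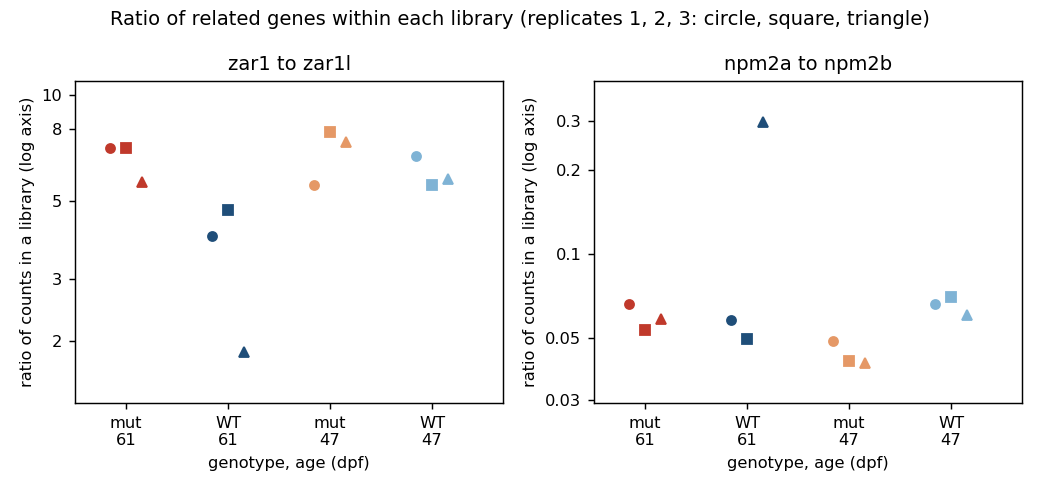
Ratio of estimated counts of zar1 to zar1l and of npm2a to npm2b within each library, on log axes, for replicates 1, 2 and 3 of mutants and wild type at 61 and then 47 dpf. The zar1 to zar1l ratio is 1.85 to 4.71 in wild type at 61 dpf and 5.57 to 7.85 elsewhere, and 1 wild-type library at 61 dpf has an npm2a to npm2b ratio of 0.298.

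cpeb1b is a cytoplasmic polyadenylation element binding protein, of the family that sets poly(A) tail length and translation of stored mRNAs in Xenopus oocytes. It was at 1367, 1247 and 1515 CPM in mutants at 61 dpf and at 1452, 1339 and 838 CPM in wild type, where replicate 3 was the lowest of all 12 libraries. Mutants of 47 dpf held 1559, 1441 and 1263 CPM, and wild type of that age lay within 1545 to 1586 CPM. Mutants over wild type gave a log2 fold change of 0.19 at 61 dpf (95% interval -0.26 to 0.63) and -0.14 at 47 dpf (-0.58 to 0.30). At 61 dpf it was -0.02 when wild-type replicate 3 was left out. In wild type the levels at 61 dpf lay below those at 47 dpf, with a log2 fold change of -0.37 ± 0.20 (edgeR adjusted p = 0.315).

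ybx1, a cold-shock domain protein that binds maternal mRNAs and represses their translation in the zebrafish, was the gene of the 10 whose groups parted at both ages. Of all genes, 27.9% parted in either direction at 61 dpf and 12.6% at 47 dpf, and the share at both ages was not counted. At 61 dpf ybx1 was at 382, 438 and 401 CPM in mutants, against 380, 354 and 189 CPM in wild type. The lowest mutant library thus lay just above the highest of wild type. Levels at 47 dpf were 449, 566 and 449 CPM in mutants, against 352, 350 and 363 CPM in wild type, and every mutant library was higher. The log2 fold changes were 0.40 ± 0.23 at 61 dpf (edgeR adjusted p = 0.288) and 0.46 ± 0.23 at 47 dpf (adjusted p = 0.761), and neither passed the test. The value at 61 dpf was 0.15 without wild-type replicate 3. The difference between them was -0.05 with a 95% interval of -0.76 to 0.65. In mutants ybx1 was also lower in each library at 61 dpf than in each at 47 dpf, at a log2 fold change of -0.26 ± 0.23.

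btg4 belongs to the BTG family and, in the mouse, brings a deadenylase to maternal mRNAs that are to be cleared as the oocyte matures. It was at 598, 491 and 509 CPM in mutants at 61 dpf, and at 317, 612 and 608 CPM in wild type, where replicate 1 was the lowest of all 12 libraries. The 47 dpf libraries held 572, 463 and 380 CPM in mutants and 571, 540 and 373 CPM in wild type, with the groups spread over nearly the same range. The log2 fold changes were 0.06 ± 0.26 at 61 dpf and -0.07 ± 0.26 at 47 dpf, and the 95% intervals reached from -0.52 to 0.63 and from -0.64 to 0.51. The sign at 61 dpf turned without wild-type replicate 1, at -0.18.

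h1m is the maternal linker histone of the zebrafish, which binds DNA between nucleosomes in germ cells and early embryos. It was at 1176, 1382 and 1205 CPM in mutants at 61 dpf, against 1638, 1525 and 2595 CPM in wild type. Levels at 47 dpf were 1148, 864 and 1480 CPM in mutants and 996, 1300 and 1448 CPM in wild type. The 3 wild-type libraries at 61 dpf were above each of the other 9, the reverse of figla and zar1. The log2 fold change of mutants over wild type was -0.61 ± 0.25 at 61 dpf (95% interval -1.17 to -0.06, edgeR adjusted p = 0.16) and -0.10 ± 0.25 at 47 dpf. Between ages it was 0.62 ± 0.25 in wild type (adjusted p = 0.187) and 0.11 ± 0.25 in mutants. Without wild-type replicate 3 at 61 dpf the values were -0.34 for genotype at 61 dpf and 0.33 for age in wild type. Scaled to the oocyte markers, the difference at 61 dpf was -1.32 (edgeR adjusted p = 0.033) and the one between ages in wild type 1.56 (adjusted p = 0.013), while the median of all genes moved to -0.67 and 0.91. That scaling called 18% of all genes at 61 dpf and 39.1% with age in wild type, and 2 of the 10, zar1l and h1m, in each.

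The nucleoplasmins npm2a and npm2b are histone chaperones; their relatives in Xenopus store histones in the egg and open up sperm chromatin. npm2b was at 468, 478 and 460 CPM in mutants at 61 dpf, against 635, 203 and 179 CPM in wild type. The 47 dpf libraries held 462, 558 and 869 CPM in mutants and 497, 390 and 593 CPM in wild type. The mutant libraries at 61 dpf were within 1.04-fold of each other, whereas wild-type replicate 1 exceeded replicate 3 by 3.55-fold. The log2 fold change of 0.47 ± 0.41 at 61 dpf had a 95% interval of -0.44 to 1.37. Without wild-type replicate 1 it was 1.31 with an edgeR adjusted p of 0.0397, and the value between ages in wild type was -1.40 (adjusted p = 0.0228) in place of -0.54 ± 0.41 (adjusted p = 0.473). Replicates 2 and 3, which were low for npm2b, were the same libraries in which the summed oocyte markers were low. Of the 27 markers, 19 had a positive log2 fold change of mutants over wild type at 61 dpf. Single markers differed: bmp15 was higher in wild-type replicates 2 and 3 than in any mutant library. ddx4 was lower in both than in any mutant library of 61 dpf. buc was the lowest of all libraries in replicate 2 and the highest in replicate 3, and dazl was the reverse. Scaled to the oocyte markers, npm2b at 61 dpf was at 0.068 (edgeR adjusted p = 0.90), while the median of all genes moved to -0.67.

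npm2a was at 31.0, 25.5 and 27.0 CPM in mutants at 61 dpf, against 36.9, 10.1 and 53.4 CPM in wild type, which held both the lowest and the highest of all 12 libraries. Earlier, at 47 dpf, it was at 22.5, 23.1 and 35.5 CPM in mutants and 33.0, 27.4 and 35.9 CPM in wild type. The log2 fold changes were -0.27 ± 0.43 at 61 dpf and -0.25 ± 0.43 at 47 dpf, with 95% intervals of -1.20 to 0.67 and -1.18 to 0.69. At 61 dpf it was 0.23 when wild-type replicate 3 was left out.

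The ratio of npm2a to npm2b was 0.0664, 0.0534 and 0.0586 in mutants at 61 dpf, against 0.058, 0.0498 and 0.298 in wild type. In 47 dpf ovaries it was 0.0488, 0.0414 and 0.0409 in mutants, against 0.0664, 0.0703 and 0.0606 in wild type, and every mutant library was lower. The mean log2 ratio differed by -0.59 between mutants and wild type at 47 dpf and by 0.44 between 61 and 47 dpf in mutants, each with an exact permutation p of 0.1 (0.2 adjusted over the 8 comparisons). At 61 dpf it differed by -0.68 (exact permutation p = 0.9), and by 0.14 without wild-type replicate 3. The counts of npm2b were fractional in every library and those of npm2a whole.

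**Figure D3:**
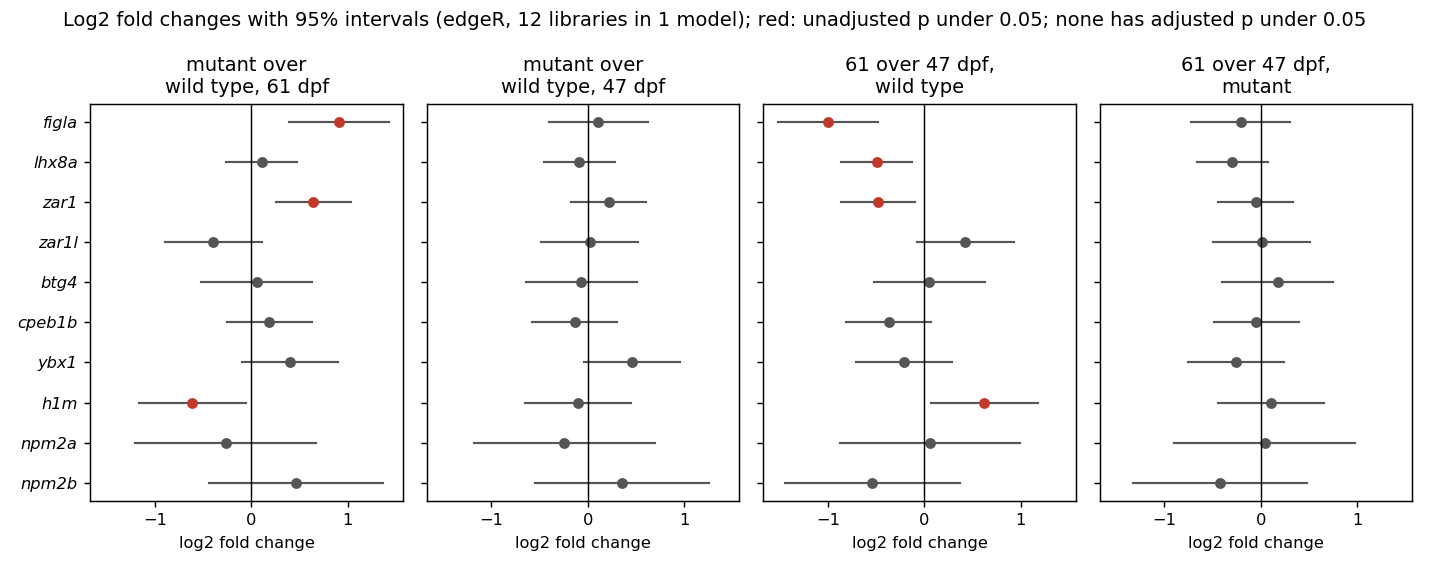
Log2 fold changes of the 10 regulators with 95% intervals from 1 edgeR model of 12 libraries, for mutants over wild type at 61 and at 47 dpf and for 61 over 47 dpf in wild type and in mutants. Red points have p under 0.05 before adjustment (3 genes at 61 dpf, none at 47 dpf, 4 in wild type, none in mutants), and none has an adjusted p under 0.05.

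Age was compared within each genotype. Between 61 and 47 dpf in wild type no regulator was called by edgeR, against 1.52% of all genes. 4 of the 10 had p under 0.05 before adjustment, or 40%, against 21.6% of all genes. Levels did not overlap for 5 of the 10, with figla, lhx8a, zar1 and cpeb1b lower and h1m higher at 61 dpf, against 22.8% of all genes in either direction. DESeq2 called 1, figla, and 7.81% of all genes. Between ages in mutants none was called by edgeR or by DESeq2, with 0% of all genes called in edgeR and 0.103% in DESeq2, and none had p under 0.05 before adjustment against 3.83% of all genes. Levels did not overlap for 2 of the 10, lhx8a and ybx1, against 11.6% of all genes. Both were lower at 61 dpf (6.04% of all genes were), and none was higher (5.52% of all genes were).

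The test of the mutant effect at 61 dpf against that at 47 dpf called none of the 10 and 0% of all genes in edgeR, and DESeq2 called none of the 10 and 0.505% of all genes. Before adjustment 1 regulator, figla, had p under 0.05, or 10%, against 8.46% of all genes. The wild-type libraries at 61 dpf serve in both the genotype and the age comparison, so their values for the 10 genes appear in both.

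Set against all other libraries, a description chosen after the values were seen, the 3 wild-type libraries at 61 dpf were outside the range of the other 9 for 3 of the 10 regulators, against 10.6% of all genes. They were lower for figla and zar1 (5.78% of all genes were lower) and higher for h1m (4.86% of all genes were higher). These libraries also had the widest spread: the median SD of log2 CPM over the 10 genes was 0.13 in mutants and 0.44 in wild type at 61 dpf, against 0.23 and 0.44 over all genes. For 47 dpf the medians were 0.25 in mutants and 0.21 in wild type, against 0.30 and 0.28 over all genes. In mutants at 61 dpf none of the 10 genes exceeded the median spread of all genes, and in wild type of that age 5 of 10 did.

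The summed level of the 10 genes was 4994, 4967 and 5075 CPM in mutants at 61 dpf and 5191, 4735 and 5119 CPM in wild type. In libraries of 47 dpf it was 5162, 5046 and 5382 CPM in mutants and 4882, 5161 and 5188 CPM in wild type. The groups overlapped at both ages. The sum hides moves in opposite directions: in wild-type replicate 3 at 61 dpf h1m was the highest of all 12 libraries and cpeb1b, zar1 and ybx1 were the lowest. In whole ovary, fewer oocytes and less RNA of a gene in each oocyte cannot be told apart, and a level is a share of all RNA in the library. Levels are compared between libraries for each gene and not between genes, as transcript lengths were not used here.

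**Figure D4:**
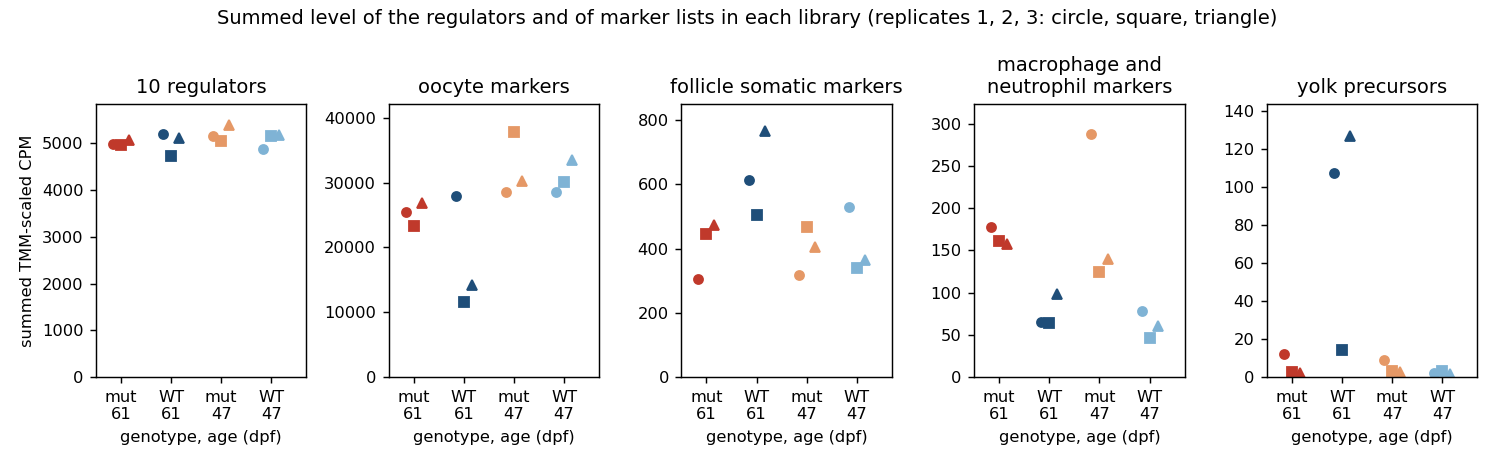
Summed level of the 10 regulators and of 4 marker lists in each library, in TMM-scaled CPM on linear axes from 0, for replicates 1, 2 and 3 of mutants and wild type at 61 and then 47 dpf. The regulators stay within 4735 to 5382 CPM, the oocyte marker sum is lowest in wild-type replicates 2 and 3 at 61 dpf, the macrophage and neutrophil sum is higher in every mutant library, and yolk precursors are highest in wild type at 61 dpf.

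Markers of other cells moved with genotype or age. Follicle somatic markers (13 of 13 above 3 counts in every group) summed to 306 to 472 CPM in mutants and 505 to 765 CPM in wild type at 61 dpf. The sums of 47 dpf overlapped, at 319 to 469 CPM in mutants and 340 to 531 CPM in wild type. Macrophage and neutrophil markers (12 of 12 in every group) summed to 158 to 177 CPM in mutants and 64.7 to 98.9 CPM in wild type at 61 dpf. The sums of 47 dpf were 125 to 288 CPM in mutants and 46.2 to 78.8 CPM in wild type. Yolk precursor transcripts, made mainly in liver, summed to 2.003 to 12.3 CPM in mutants and 14.1 to 127 CPM in wild type at 61 dpf (3 and 6 of 7 above 3 counts in every library of the group). Their part in the differences of figla, zar1 and h1m at 61 dpf was not tested. The sums of all 3 lists parted mutants from wild type at 61 dpf, but their genes did not all move alike. Log2 fold changes were positive for 4 of 13 follicle somatic genes, with 1 called higher and 1 lower by edgeR. They were positive for 9 of 12 macrophage and neutrophil genes, with 3 called higher and 0 lower. Of 6 yolk precursors tested 0 were positive, with 2 called lower and 0 higher, where 1.82% of all genes were called. gsdf, a growth factor of gonadal somatic cells, ran against the follicle sum, at 36.1, 44.7 and 53.5 CPM in mutants and 17.0, 18.9 and 9.92 CPM in wild type at 61 dpf.

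Other tissue could also be present. Pancreas markers summed to 10.1 to 757 CPM in mutants and 134 to 702 CPM in wild type at 61 dpf. At 47 dpf they summed to 28.0 to 2383 CPM in mutants and 5.94 to 614 CPM in wild type, and the ranges overlapped at both ages. All 14 pancreas genes had a positive log2 fold change in mutants at 47 dpf, with a median of 2.19, and 3 of 14 did at 61 dpf. Blood markers summed to 33.6 to 66.9 CPM in mutants and 17.3 to 57.8 CPM in wild type at 61 dpf. The 47 dpf libraries were higher, with 159 to 815 CPM in mutants and 248 to 526 CPM in wild type. Muscle markers reached 308 CPM in mutant replicate 2 at 47 dpf and were at most 50.4 CPM in any other library. Liver markers were highest in mutant replicate 1 at 47 dpf, at 198 CPM, and at most 60.2 CPM elsewhere. At 61 dpf they summed to 21.0 to 60.2 CPM in mutants and 12.1 to 25.6 CPM in wild type. Of 12 testis germ cell markers in the table, 10 or 11 were above 3 counts in every library of a group, with sums of 89.0 to 408 CPM. tssk6, a kinase of spermatids, was at 0 in every library. Whether the counts of the other genes of that list came from testis cells or from the ovary was not tested.

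Further genes of the same processes were read from 3 lists: oocyte transcription factors, maternal mRNA regulators, and egg chromatin factors. Of 92 genes listed, 85 were in the table and 83 were tested. At 61 dpf 2 of the 83 were called in mutants against wild type, or 2.41% against 1.82% of all genes, and the median log2 fold change was -0.03 over the 83 and 0.0055 over all genes. Both were among the 57 mRNA regulators, and none of the 10 transcription factors or 16 chromatin factors was called. Without adjustment 13 of the 83 had p under 0.05 at 61 dpf, or 15.7%, against 25.3% of all genes. At 47 dpf, between ages in mutants, and for the difference between ages none of the 83 was called by edgeR, against 0.0888%, 0% and 0% of all genes. Before adjustment 5, 1 and 4 of the 83 had p under 0.05, or 6.02%, 1.2% and 4.82%, against 6.92%, 3.83% and 8.46% of all genes. DESeq2 called 2, 0 and 0 of the 83, against 0.808%, 0.103% and 0.505% of all genes.

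The mRNA regulator that rose in mutants at 61 dpf was zfp36l1b, a zinc-finger protein of the family that binds AU-rich mRNAs and speeds their decay in mammals. It was at 30.2, 36.5 and 34.4 CPM in mutants, against 18.8, 19.6 and 16.9 CPM in wild type, with every mutant library higher. On the log2 scale mutants were higher by 0.87 ± 0.19 (edgeR adjusted p = 0.0426). At 47 dpf it was also higher in every mutant library, at 42.5, 40.9 and 30.7 CPM, against 25.4, 19.2 and 19.9 CPM in wild type, but was not called by edgeR (0.82, adjusted p = 0.192); DESeq2 gave 0.80 (adjusted p = 0.015).

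The mRNA regulator that fell in mutants at 61 dpf was tent2, the cytoplasmic poly(A) polymerase that lengthens the tails of stored mRNAs in Xenopus oocytes. It was at 30.3, 34.0 and 35.3 CPM in mutants, against 64.3, 48.2 and 97.6 CPM in wild type, with no overlap. Mutants over wild type gave a log2 fold change of -1.08 ± 0.24 (edgeR adjusted p = 0.0441), and -0.40 at 47 dpf (adjusted p = 0.851). The calls on zfp36l1b and tent2 at 61 dpf were close to the threshold. That on tent2 held without wild-type replicate 1 or 2 at 61 dpf, and that on zfp36l1b without wild-type replicate 2 at 61 dpf or replicate 1 at 47 dpf. Leaving out any other of the 12 libraries ended them, with adjusted p of 0.052 to 0.141 for tent2 and 0.0511 to 0.145 for zfp36l1b. Scaled to the oocyte markers, zfp36l1b was at 0.19 (edgeR adjusted p = 0.71), while the median of all genes moved to -0.67.

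Between 61 and 47 dpf in wild type 1 of the 83 was called, 1.2% against 1.52% of all genes. Without adjustment 17 of the 83 had p under 0.05, or 20.5%, against 21.6% of all genes. The gene called was ddx6, an RNA helicase that keeps mRNAs translationally silent in cytoplasmic granules, which was lower at 61 dpf. It was at 292, 357 and 210 CPM in wild type at 61 dpf, against 840, 796 and 550 CPM at 47 dpf, a log2 fold change of -1.35 ± 0.25 (edgeR adjusted p = 0.0294). In mutants it was at 494, 552 and 614 CPM at 61 dpf and 581, 868 and 575 CPM at 47 dpf, with overlap. Against wild type at 61 dpf the log2 fold change in mutants was 0.95 (adjusted p = 0.0639), and all mutant libraries were higher. The call with age was lost without wild-type replicate 3 at 61 dpf (adjusted p = 0.0662), or without wild-type replicate 1 (0.0935) or 2 (0.1) at 47 dpf. It was also lost when libraries were scaled to their oocyte markers (-0.45, edgeR adjusted p = 0.299), which moved the median of all genes to 0.91.

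The genes whose log2 CPM followed each regulator most closely over the 12 libraries were read off as a description, out of 12790 genes. For figla they were scrn2, mapk12a and arhgef33, with Pearson r of 0.94, 0.93 and 0.92. For lhx8a they were xpo1b, gga3b and ube2q1 (0.95, 0.94 and 0.92), and for zar1 they included rps9 and sik3 (0.98 and 0.97). For h1m they were mphosph8, chmp6b and appl2 (0.98, 0.97 and 0.97). None of these was a regulator of the 10 or of the 3 lists. The 12 points share groups, depth and library composition.

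The remaining 6 regulators had partners of like strength. ybx1 was followed by mta3, rpl24 and ap2m1b (r of 0.95, 0.94 and 0.94), cpeb1b by ubxn2a, sp1 and galnt10 (0.95, 0.94 and 0.94), and btg4 by pwwp2a, acp5a and pnrc2 (0.96, 0.93 and 0.92). zar1l was followed by dap, med7 and galns (0.92, 0.91 and 0.91), npm2a by cyp26c1, lsm5 and ndufb4 (0.95, 0.94 and 0.93), and npm2b by selenot2, riox1 and zpax4 (0.95, 0.95 and 0.95). In a gene table of another assembly, GRCz12tu, all 10 regulators were placed and none lay on the chromosome of adamts9.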

How the data were processed

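Polyadenylated RNA of 12 ovary libraries was measured, with estimated counts of each gene in 1 table as deposited by the authors, and kallisto and GRCz11 named without versions in the submitters' processing notes. Of the values, 45.4% were not whole. They were rounded, and a line with a blank name (0.000113% of a library at most) was dropped. Genes were filtered with filterByExpr, scaled by TMM and fitted over all libraries with a 4-level group factor in edgeR 4.0.16 (R 4.3.3). The quasi-likelihood test was used, with Benjamini-Hochberg adjustment over 21407 genes, and genes were called under 0.05. That fit was tried on simulated counts, which had a smaller spread than these data and changes larger than most of those of the 10 genes. DESeq2 1.42.0, median-of-ratios, upper-quartile and oocyte-marker scaling, no filter, only the compared libraries, a replicate block and leaving out each library were alternatives. Ratios used a pseudocount of 0.5 and exact two-sided permutation tests. A count of 0 allows up to 3 counts, or 0.0811 to 0.181 CPM, for counting error only. No 2 libraries held identical values. Counts were fractional in all 12 libraries for zar1l, h1m and npm2b, in 11 for figla and in 4 for btg4, so reads shared with other transcripts make these less certain. Of the 10 symbols, 8 matched the table of gene IDs. The genes and lists were chosen with earlier results of these data known. Named genes were the 10 regulators, up to 3 called genes of each list and contrast by smallest p, and for each regulator the 3 genes with the highest Pearson r of log2 CPM (prior count 2) among those whose mean log2 CPM reached 1 and with a symbol that is no clone or locus name. One of these correlated genes is not reported here.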

Additional observations from a re-analysis of the deposited data

How the results depend on the processing

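The 10 regulators kept their uncalled state in every contrast under median-of-ratios scaling, without the filter, with only the compared libraries (not run for the difference between ages) and with the replicate block. Counts of called genes and regulators changed with the tool and the scaling, as follows, and the cause was not tested unless a reason is given. DESeq2 called 2387 genes for mutants against wild type at 61 dpf, 173 at 47 dpf, 108 for the difference, 1671 between ages in wild type and 22 in mutants, where edgeR called 390, 19, 0, 325 and 0. At 61 dpf 47.3% of its calls were higher, against 67.2% in edgeR. It called 2 of the 10 at 61 dpf and 1 with age in wild type. Of the 83 other regulators it called 7 at 61 dpf (11.2% of all genes), 2 at 47 dpf (0.808%) and 3 with age in wild type (7.81%). Upper-quartile scaling called 989 genes (4.62%) and 2 of the 10 at 61 dpf, with 88.8% of calls higher in place of 67.2%, and 1 of the 10 with age in wild type (1.46% of all genes), with 29.5% of calls higher in place of 48%. It moved the median of all genes to 0.20 at 61 dpf. At 47 dpf 52.6% of 19 calls were higher, against 62.5% with upper-quartile scaling and 79.8% in DESeq2.

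Scaling to the oocyte markers took each library's factor from the mean log2 CPM of those markers, not from their sum. It moved the median of all genes to -0.67 at 61 dpf, 0.91 with age in wild type and -0.75 for the difference. Calls were 3859 genes (18% of all, 2.59% higher), 2 of the 10 and 16 of the 83 at 61 dpf, and 8372 genes (39.1% of all, 98.7% higher), 2 of the 10 and 35 of the 83 with age in wild type, and 4 genes for the difference. With that shift included, signs turned at 61 dpf for lhx8a (-0.61), zar1 (-0.016), btg4 (-0.74), cpeb1b (-0.46) and ybx1 (-0.22). With age in wild type they turned for lhx8a (0.43), zar1 (0.38), cpeb1b (0.48), ybx1 (0.64), npm2b (0.085) and zfp36l1b (0.67), and in mutants for figla (0.0023), zar1 (0.14) and cpeb1b (0.13). For the difference they turned for lhx8a (-0.52), zar1 (-0.24), btg4 (-0.71), cpeb1b (-0.36) and npm2b (-0.31).

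Values near 0 also changed sign elsewhere. zar1l at 47 dpf was -0.011 with median-of-ratios scaling and in DESeq2, and -0.00081 without the filter. With upper-quartile scaling btg4 was -0.066 and npm2a -0.082 with age in wild type, and ybx1 was 0.079 and npm2a 0.16 for the difference. Fits of only the compared libraries, with fewer degrees of freedom, called 20 genes at 61 dpf and 26 with age in wild type, and 0 of the 83 in both. Without the filter 0 of the 83 were called at 61 dpf, where 275 of 25851 genes were.

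The replicate numbers were not treated as pairs in the main fit. Correlations of same-numbered deviations ran from -0.20 to 0.25, and in no contrast were all over 0.1. With 3 libraries a group these values do not settle whether libraries were paired. Every library correlated best with its own number only between ages in mutants. With the replicate block edgeR called 87 genes and 0 of the 83 at 61 dpf and 115 genes with age in wild type, npm2a became 0.18 for the difference and -0.092 with age in wild type, and zar1l -0.0066 with age in mutants. The block changed no call on the 10.

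Leaving out 1 library at a time gave 27 to 1639 genes at 61 dpf, 16 to 848 with age in wild type, 0 to 3 for the difference and 0 to 7 with age in mutants. At 61 dpf the count was 27 to 36 without any 1 mutant library of that age, and 58 and 1639 when wild-type replicates 3 and 2 were left out. It was also 1.5 times lower or more without mutant replicate 2 or 3 or wild-type replicate 1 or 2 of 47 dpf (79 to 207). With age in wild type it was 848 and 51 when replicates 1 and 3 of 61 dpf were left out, 16 to 93 without a wild-type library of 47 dpf, and 145 to 176 without a mutant library of 61 dpf or mutant replicate 3 of 47 dpf. Of the 10, 0 to 1 were called at 61 dpf and with age in wild type (npm2b, without wild-type replicate 1), and of the 83, 0 to 6 and 0 to 3. Over all genes these counts were 27 to 1639 and 16 to 848.

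Over the same fits, signs turned at 47 dpf for figla (-0.039 to 0.24), zar1l (-0.10 to 0.15), btg4 (-0.24 to 0.041) and h1m (-0.34 to 0.071), and at 61 dpf for btg4 (-0.18 to 0.20), cpeb1b (-0.024 to 0.35) and npm2a (-0.70 to 0.23). For the difference they turned for btg4 (-0.084 to 0.29), ybx1 (-0.30 to 0.17), npm2a (-0.45 to 0.49) and npm2b (-0.19 to 0.99). With age in wild type they turned for btg4 (-0.12 to 0.27), ybx1 (-0.42 to 0.039) and npm2a (-0.45 to 0.49), and in mutants for zar1 (-0.11 to 0.065), zar1l (-0.10 to 0.13), cpeb1b (-0.12 to 0.027), h1m (-0.066 to 0.33) and npm2a (-0.074 to 0.30). The log2 npm2a to npm2b ratio ranged from -1.15 to 0.14 at 61 dpf and from -0.29 to 1.002 with age in wild type, and zar1 to zar1l from -0.21 to 0.048 with age in mutants. A pseudocount of 5 in place of 0.5 turned no ratio. With 3 libraries a group and a biological coefficient of variation of 0.33, the width of the intervals, up to those of npm2a and npm2b, limits what differences could be seen.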
